A study of Mus musculus with 8 samples.

Results

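The mouse kidney transcripts described here encode 9 cell surface adhesion proteins best known from the nervous system. They are Thy1, Slitrk6, Cntn1, Cntn4, Ncam1, L1cam, Nrcam, Alcam and Chl1, and they were taken by symbol from a table of 23337 genes, in which all 9 were found and all 9 passed the filter on low values. RNA came from E13.5 embryonic kidneys of C57BL/6 (mixed) background, in 4 control and 4 mutant libraries of 10288191 to 13494079 reads in genes. Control kidneys were Smo(flox/+), so 1 of their Smo copies was intact and the other floxed. Mutant kidneys were Foxd1Cre;Smo(flox/-), in which the second copy was null and Foxd1Cre drives Cre recombinase in stromal progenitors of the kidney. Smoothened, the product of Smo, relays hedgehog signals from the cell surface. A floxed copy was common to both groups, whereas the null copy, which every mutant cell carried, and the Cre allele were present only in mutants, so the differences compare complete genotypes. The labels number the samples without naming embryos or litters, so p-values measure the spread between these samples, part of which may be technical. By the Y-linked gene Ddx3y each group held male and female libraries, so its libraries were not all from the same embryos.

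The proteins hold cells together or let them sense their neighbours. Thy1 and the contactins Cntn1 and Cntn4 are attached to the membrane by a GPI lipid anchor, Ncam1, L1cam, Nrcam, Chl1 and Alcam are mostly transmembrane proteins with immunoglobulin domains, and Slitrk6 is a transmembrane protein with leucine-rich repeats. They guide axons and organise synapses in the nervous system, and several of them also mark other tissues. Ncam1 is present on the mesenchyme that forms nephrons, and L1cam on the epithelium of the ureteric bud.

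The genes were chosen by function together with their mutant and control values in these same libraries, which had been seen in earlier results. Their differences are therefore given as a description, and the adjusted p-values, from limma fitted to all 13692 genes with a mean normalised count of at least 10, place each gene in that fit without adding independent support. In that fit 3 of the 9 genes were past the adjusted p threshold of 0.05. Thy1 and Slitrk6 were lower and Cntn4 was higher in the mutants. Of all genes tested, 0.57% were past the threshold (0.446% lower and 0.124% higher). On recovered reads edgeR called 3 of the 9 genes (0.577% of all genes tested) and DESeq2 called 4 (1.56%). None of the 9 passed when limma was fitted without its trend, without both libraries numbered 2 or without controls 1 and 2.

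The libraries carried kidney transcripts throughout. Each of 8 kidney identity genes was present in every library. Smo was at 2152 to 2294 in controls and 509 to 553 in mutants, so the targeted gene matched the labels in all 8 libraries. Summed over 10 cortical stroma markers, the level was 24386 to 26226 in controls and 18000.2 to 21472 in mutants, and over 10 nephron progenitor markers it was 9916 to 11453 and 12433 to 13208. Neither sum overlapped between the groups. Values of the listed markers had been seen in earlier results, so these sums are a description. None of the markers in these lists was at 0 in any library. By limma 2 of the stromal genes (Foxd1 and Smoc2) were past the threshold as lower, as were 0.446% of all tested genes. Of the progenitor genes 2 (Itga8 and Spock2) were past it as higher, as were 0.124% of all tested genes. Pax2 of the kidney identity genes and Gfra1 of the ureteric bud markers were also past it as higher. The stromal gene Tcf21 went against its sum, with means of 1263 in controls and 1280 in mutants. So did the progenitor gene Meox1, with 459 and 410. In whole kidneys, fewer cells of a type and less RNA per cell cannot be told apart. For Foxd1, a direct effect of the Foxd1Cre allele cannot be told apart either.

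Neural tissue is the best known source of these transcripts. The sum of 14 neuronal markers was 604 to 793 in controls and 640.02 to 774 in mutants, and that of 8 Schwann and neural crest markers 417 to 509.6 and 439 to 602. The control and mutant ranges overlapped for both sums, and no marker of either list was past the threshold. Elavl4, the most abundant neuronal marker, was at 157 to 204 in controls and 191 to 259.7 in mutants (log2 fold change 0.25), while the median over the 6 tested neuronal markers was -0.11. Of the neuronal markers, 8 had a mean under 10, and the neuronal tubulin gene Tubb3 reached at most 22.7 in any library. The neural crest factor Sox10 reached at most 12.4, while most of the Schwann and crest sum came from Erbb3 (336 to 488), a receptor that epithelia also express. The part of neural cells in the values of the 9 genes was not tested.

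The sequences before the transcription start of the members that changed are shown where the reference has an entry, with L1cam, whose groups overlapped, beside them. They come from RefSeq (build GRCm38.p6), run 5′ to 3′ on the gene's strand and leave out any base inside an annotated exon of the gene. Capitals mark CG pairs. The Slitrk6 stretch is chr14:110755205-110755399 on the minus strand, the Cntn4 stretch chr6:106118515-106118764 on the plus strand, inside the gene's span and before an internal start, and the L1cam stretch chrX:73880839-73881084 on the minus strand.
Slitrk6: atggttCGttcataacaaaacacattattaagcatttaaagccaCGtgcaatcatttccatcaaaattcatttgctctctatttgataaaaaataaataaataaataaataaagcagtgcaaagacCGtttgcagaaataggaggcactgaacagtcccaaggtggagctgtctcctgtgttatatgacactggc
Cntn4: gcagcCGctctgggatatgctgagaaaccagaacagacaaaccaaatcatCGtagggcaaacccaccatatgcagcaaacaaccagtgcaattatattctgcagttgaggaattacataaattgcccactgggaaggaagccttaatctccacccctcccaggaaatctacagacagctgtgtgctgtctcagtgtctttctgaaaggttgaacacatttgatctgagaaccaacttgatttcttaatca
L1cam: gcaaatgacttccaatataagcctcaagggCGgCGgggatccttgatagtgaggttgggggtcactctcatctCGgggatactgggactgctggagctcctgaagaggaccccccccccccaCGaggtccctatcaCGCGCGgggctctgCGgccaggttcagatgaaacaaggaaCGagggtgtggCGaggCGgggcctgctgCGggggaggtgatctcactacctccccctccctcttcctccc
The Slitrk6 stretch held 3 CG pairs in 195 bases, the Cntn4 stretch 2 in 250 and the L1cam stretch 12 in 246. A further window listed for Cntn4, at a neighbouring start, held 12 CG pairs in its 250 bases before the start, as many as the L1cam stretch, and a further one for L1cam held 20. Over the 11 windows listed for 7 of the 9 genes, the 250 bases before the start held between 2 and 25 CG pairs, with the fewest at Cntn4 and the most at Nrcam, where the median of all 32851 windows was 6. None of the 11 windows of 300 bases held the Gli motif GACCACCCA or its core ACCACCC, which lies within the longer motif, on either strand. Of all windows 0.253% held the first and 4.61% the second. This says only that these letters are not in these windows.

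Thy1 encodes a small GPI-anchored glycoprotein of neurons, thymocytes and some fibroblasts that binds integrins on neighbouring cells. The gene (chromosome 9, 44043384 to 44048579, GRCm38.p6) had normalised counts of 269.6, 234, 308 and 237 in controls 1 to 4 and of 126, 95.8, 152 and 148 in mutants 1 to 4. Every mutant library was below every control library, as in 3.0% of all tested genes, and control 3 was the highest of the 8. The mean went from 262 ± 34.7 (SD, n = 4) to 131 ± 25.9 (SD, n = 4), 49.8% of the control level. Differences between groups are given as log2 fold changes, mutant minus control, after adding 1 to each normalised count, so those of low genes are understated. That of Thy1 was -1.01 (SE 0.146, adjusted p = 0.0130). Thy1 was 23rd of all tested genes by unadjusted p. Its call was lost without control 3 (adjusted p = 0.0621) or mutant 1 (adjusted p = 0.0530).

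Slitrk6 encodes a leucine-rich repeat protein that acts at synapses through receptor tyrosine phosphatases and is needed for normal hearing and sight. On chromosome 14 (110747338 to 110755204), it stood at 91.9, 86.8, 75.6 and 52.7 in controls and at 33.4, 34.1, 20.2 and 18.3 in mutants. The groups did not overlap, as in 5.31% of all tested genes, and control 4 was the lowest control. Slitrk6 fell from 76.7 ± 17.4 to 26.5 ± 8.4 (SD, n = 4 each), to 34.5% of the control level (log2 fold change -1.52, SE 0.247, adjusted p = 0.0235). It was the least covered member, with 17 recovered reads in its lowest library, so counting error weighs most here. Leaving out control 1, 2 or 3 or mutant 3 ended its call (adjusted p = 0.0694, 0.0847, 0.0993 and 0.0932).

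Cntn4 encodes an axonal contactin that binds the amyloid precursor protein App and the phosphatase Ptprg. It was the one member called higher. Its gene spans 1023 kb of chromosome 6 (105677632 to 106700141). Controls had 97.0, 74.4, 82.3 and 78.0 normalised counts and mutants 127, 113, 137 and 131. Every mutant library was above every control library, as in 2.31% of all tested genes. Cntn4 rose from 82.9 ± 9.9 to 127 ± 10.1 (SD, n = 4 each), or 0.61 on the log2 scale (SE 0.114, adjusted p = 0.0424). With 1 library left out the call remained only without control 1 (adjusted p = 0.0391) or control 4 (0.0480), and the fold change stayed between 0.56 and 0.69. The call was absent without control 2 (adjusted p = 0.129), control 3 (0.148), mutant 1 (0.130), mutant 2 (0.0783), mutant 3 (0.159) or mutant 4 (0.0842). The nephron progenitor and stromal sums given above moved with the genotype as Cntn4, Thy1 and Slitrk6 did, and their part in these values was not tested. The sum of 10 ureteric bud markers overlapped between groups, at 7761 to 9648 in controls and 8707 to 11078 in mutants. Its marker Gfra1 was called higher by limma (log2 fold change 0.31, adjusted p = 0.0424). The part of the ureteric bud in the Cntn4 values was not tested either.

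The other contactin among the 9 genes, Cntn1, a partner of contactin-associated proteins beside the nodes of myelinated axons, had overlapping groups. Normalised counts were 87.6, 92.0, 77.5 and 89.3 in controls and 69.7, 67.1, 81.8 and 93.4 in mutants. Mutants 1 and 2 were lowest and mutant 4 was highest of all libraries. The log2 fold change was -0.16, with a 95% interval from -0.45 to 0.13 (adjusted p = 0.821).

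**Figure D1:**
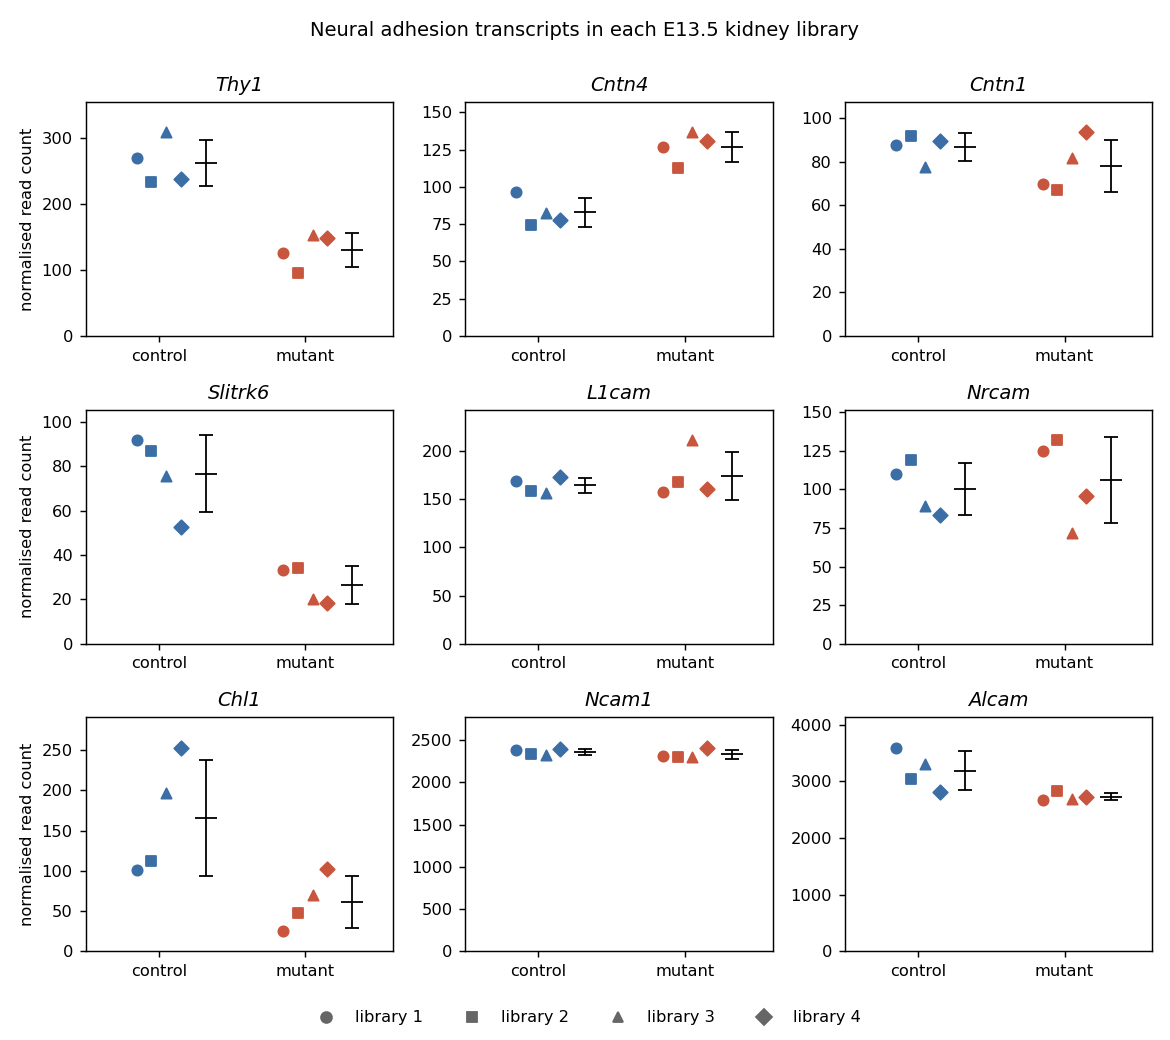
Normalised read counts (vertical axes, from 0) of the 9 adhesion genes in the 4 control (blue) and 4 mutant (red) libraries, with the marker shape giving the library number and black bars the mean ± SD. Thy1, Slitrk6 and Cntn4 show no overlap between groups, as do 5.31% of all tested genes. Chl1 ranges from 25.8 to 253, and Ncam1 stays between 2300.2 and 2411.

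Chl1, the close homolog of L1, varied most among libraries. This adhesion protein promotes neurite outgrowth and neuronal migration. On chromosome 6 (103510584 to 103733038), it stood at 101, 113, 197 and 253 in controls and at 25.8, 47.9, 69.4 and 102 in mutants. Control 1 and mutant 4 met at nearly the same level, so the groups overlapped by that margin alone. The coefficient of variation was 43.4% among controls and 53.0% among mutants, against 1.5% and 2.3% for Ncam1. The mean was 166 ± 72.0 in control and 61.3 ± 32.5 in mutant kidneys (SD, n = 4 each), with a log2 fold change of -1.48 and a 95% interval from -2.34 to -0.63. With an SE of 0.391 it was not past the threshold (adjusted p = 0.162).

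Chl1 and Cntn4 lie on the same chromosome with a gap of 1.94 Mb between them, and their values went in opposite directions. Chl1 lies 73.7 Mb and Cntn4 75.9 Mb from Smo on that chromosome. Thy1 and Ncam1 share chromosome 9 with a gap of 5.45 Mb. The fold change was -1.01 for Thy1 and -0.02 for Ncam1.

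The other L1 family members had overlapping groups. L1cam supports axon bundling and outgrowth. Its X-linked gene (73853778 to 73880838) was at 169, 159, 157 and 173 in controls and at 158, 168, 212 and 161 in mutants. Mutant 3 was the highest and the remaining 7 libraries lay within 157 to 173. The log2 fold change was 0.08 (95% interval -0.15 to 0.30, adjusted p = 0.909), and without mutant 3 it was -0.019. By Ddx3y, a Y-linked gene, control 4 (1518) and mutant 2 (1390) were male and the others (at most 1.7) female. L1cam in those male libraries was at 173 and 168. Among the female ones only mutant 3 was above control 4.

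Nrcam, which clusters sodium channels at the nodes of axons, is on chromosome 12 (44328786 to 44605194). Controls had 109.7, 119, 89.1 and 83.7 normalised counts and mutants 125, 132, 71.7 and 95.6. In both groups the libraries numbered 1 and 2 were above those numbered 3 and 4, which was also so for Slitrk6, and the reverse held for Chl1. The summed level of 10 ureteric bud markers was split in the same way, with 9648 and 8447 against 8018 and 7761 in controls and 11078 and 10386 against 9853 and 8707 in mutants. Of these markers Krt8, Gata3 and Cdh1 were split so in both groups. Ret, Wnt11, Gfra1, Calb1, Krt18, Hoxb7 and Wnt9b were not. The part of the ureteric bud in the spread of Nrcam was not tested. The log2 fold change of Nrcam was 0.05 (95% interval -0.37 to 0.47, adjusted p = 0.968), and its sign turned without control 4 (-0.03), mutant 1 (-0.04) or mutant 2 (-0.063).

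Ncam1 was the steadiest member. It encodes the neural cell adhesion molecule, a homophilic receptor that is modified with polysialic acid in the embryo. Normalised counts on its gene (chromosome 9, 49502129 to 49799393) were 2388, 2337, 2326 and 2395 in controls and 2316, 2300.2, 2305 and 2411 in mutants. Mutants 1 to 3 were below all controls and mutant 4 was the highest library, so the groups overlapped through mutant 4 alone. The log2 fold change of -0.02 had a 95% interval of -0.08 to 0.05 (adjusted p = 0.930). Skeletal muscle also expresses Ncam1, and 12 muscle markers summed to 4206 in control 2 and 2804 in mutant 2 against 747 to 1238 in the other libraries, while Ncam1 was at 2337 in control 2 and at 2300.2, its lowest level, in mutant 2. Of the muscle markers, Des alone was at 621 to 1031 over the 8 libraries. The part of muscle in the Ncam1 values was not tested. Exons of the antisense gene Gm11149 overlap 4.8% of the Ncam1 exon length. The deposited values are labelled Unstr, which may stand for unstranded counting. The setting is not otherwise given, so how reads in that overlap were counted is not known.

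Alcam, an immunoglobulin adhesion molecule that binds itself and the lymphocyte receptor Cd6, was the most abundant of the 9 genes. On chromosome 16 (52248996 to 52453081), it stood at 3593, 3035, 3313 and 2806 in controls and at 2675, 2821, 2696 and 2722 in mutants. Mutant 2 was above control 4, and otherwise the groups were apart. The mean was 3187 ± 341 and 2728 ± 64.6 (SD, n = 4 each), with a log2 fold change of -0.22 (95% interval -0.36 to -0.08, adjusted p = 0.221). Alcam passed the threshold without control 4 (adjusted p = 0.0250) and by DESeq2 on the recovered reads (adjusted p = 0.0483). Its partner Cd6 had a mean under 10 and was not tested.

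**Figure D2:**
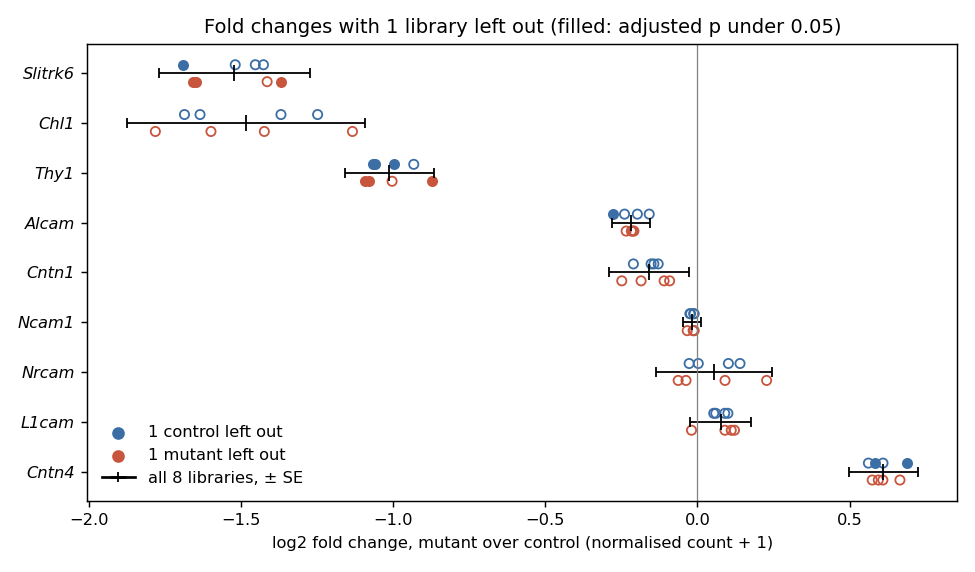
Log2 fold changes of mutant over control (horizontal axis, normalised count + 1) for the 9 genes with all 8 libraries (black, ± SE) and with 1 control (blue) or 1 mutant (red) left out, filled where the adjusted p was under 0.05. Slitrk6, Thy1, Chl1, Alcam, Cntn1, Ncam1 and Cntn4 keep their sign in each of these fits, whereas Nrcam and L1cam cross 0.

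Levels of different genes were compared per kb of exon, using exon lengths of GENCODE vM21, over all 8 libraries. Alcam led with a mean of 415 normalised counts per kb (range 376 to 505), followed by Ncam1 with 271 (265 to 278), Thy1 with 65.6 (control 87.5 ± 11.6 and mutant 43.6 ± 8.6) and L1cam with 23.1 (21.4 to 28.8). The ranges of these 4 over the 8 libraries did not overlap each other. The highest Slitrk6 level (21.7) was above the lowest L1cam level (21.4). Below these 4 in mean level, the ranges overlapped. Per kb means there were 12.4 for Cntn4, 12.2 for Slitrk6, 9.2 for Chl1, 8.7 for Cntn1 and 7.7 for Nrcam. The order of the lower genes differed between genotypes. In controls Slitrk6 (18.1 ± 4.1 per kb, SD, n = 4) was above Cntn4 (9.8 ± 1.2), and in mutants Cntn4 (15.0 ± 1.2) was above Slitrk6 (6.2 ± 2.0). The mean level of L1cam, which lay above both in each group, was 22.4 ± 1.1 in controls and 23.8 ± 3.4 in mutants.

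**Figure D3:**
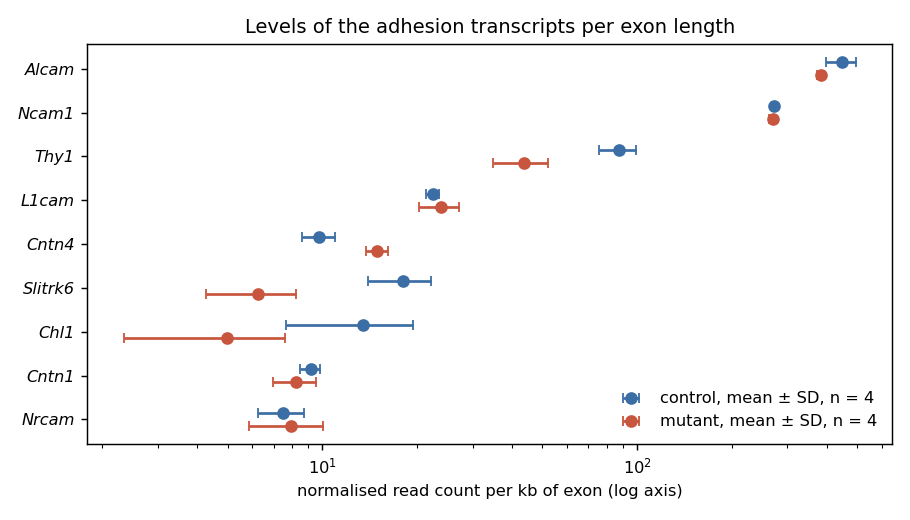
Normalised read counts per kb of exon (horizontal axis, logarithmic) of the 9 genes in control (blue) and mutant (red) kidneys, as mean ± SD with n = 4. Alcam and Ncam1 lie above 250 in both groups, and Slitrk6 and Cntn4 change places between genotypes.

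Relatives and partners of the 9 genes were taken from 7 lists of 124 symbols, all found in the table, and 101 of them apart from the 9 were tested. Of these 101 genes 1 rose, none fell and 100 were not past the threshold by limma, while 23 had an unadjusted p under 0.05. The background was 0.57% past the threshold and 8.7% with an unadjusted p under 0.05. The median log2 fold change of the 101 genes was -0.04, beside 0.00374 for all tested genes. On recovered reads DESeq2 called 5 of them.

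Among contactins and contactin-associated proteins, none of 8 tested relatives was past the threshold, and their median log2 fold change was -0.03. Cntnap3, a relative of the contactin partner Caspr, went from 19.1 ± 5.4 in controls to 9.0 ± 4.03 in mutants. Its groups did not overlap, as in 5.31% of all tested genes. Its difference of -1.07 (log2) was not past the threshold (adjusted p = 0.287). For Cntnap5b the fold change was -0.59 (adjusted p = 0.632). In the L1 and NCAM family the 2 relatives tested were Ncam2 (39.5 ± 5.4 and 26.2 ± 5.2, log2 fold change -0.58, adjusted p = 0.303), whose groups did not overlap, and Nfasc (-0.10, adjusted p = 0.951).

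In the list of IgLON and other GPI-anchored proteins, none of 11 relatives of Thy1 was past the threshold (median log2 fold change -0.11). The nearest were 2 IgLON proteins, which regulate neurite growth and synapse number, with values in opposite directions. Lsamp was at 68.9, 80.6, 52.3 and 79.0 in controls and at 105, 115, 113 and 107 in mutants, a log2 fold change of 0.66 (adjusted p = 0.0754). Ntm was at 191, 190.2, 228 and 170.2 in controls and at 132, 135, 153 and 143 in mutants, a log2 fold change of -0.46 (adjusted p = 0.0830). Both genes had groups that did not overlap, as did 5.31% of all tested genes.

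None of 20 relatives of Slitrk6 with leucine-rich repeats was past the threshold (median -0.09). Islr, a leucine-rich repeat gene of mesenchymal cells, had 1051 ± 68.4 and 824 ± 111 (log2 fold change -0.36, adjusted p = 0.111), and Lrrc4c, which encodes a netrin-G ligand, had a fold change of -0.86 (adjusted p = 0.424). Of 20 genes related to Alcam none passed (median -0.01), the nearest being the sidekick genes Sdk2 (-0.36, adjusted p = 0.270) and Sdk1 (-0.44, adjusted p = 0.367), which match synaptic partners in the retina.

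The gene that rose was Odz3, now called Tenm3, a teneurin that matches neurons in wiring. It was at 2542, 2545, 2429 and 2621 in controls and at 2877, 2979.7, 2902 and 3013 in mutants. Every mutant library was above every control library, as in 2.31% of all tested genes. The log2 fold change was 0.22 (adjusted p = 0.0196), and 12 of 13 genes of the neurexin, neuroligin, teneurin and latrophilin list were not past the threshold (median 0.07). The call of Odz3 was lost without control 2 (adjusted p = 0.0552), control 3 (0.0826), mutant 2 (0.0783) or mutant 3 (0.0712).

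Among 27 binding partners and modifiers none was past the threshold, and their median log2 fold change was -0.01. Ank3, an ankyrin that ties L1 family proteins to the cytoskeleton, had 1247 ± 56.9 and 1448 ± 57.1 (log2 fold change 0.22, adjusted p = 0.0635). Ptprf, a receptor phosphatase of the family that binds Slitrk proteins, had a fold change of 0.11 (adjusted p = 0.173). Both had every mutant library above every control library, as did 2.31% of all tested genes.

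**Figure D4:**
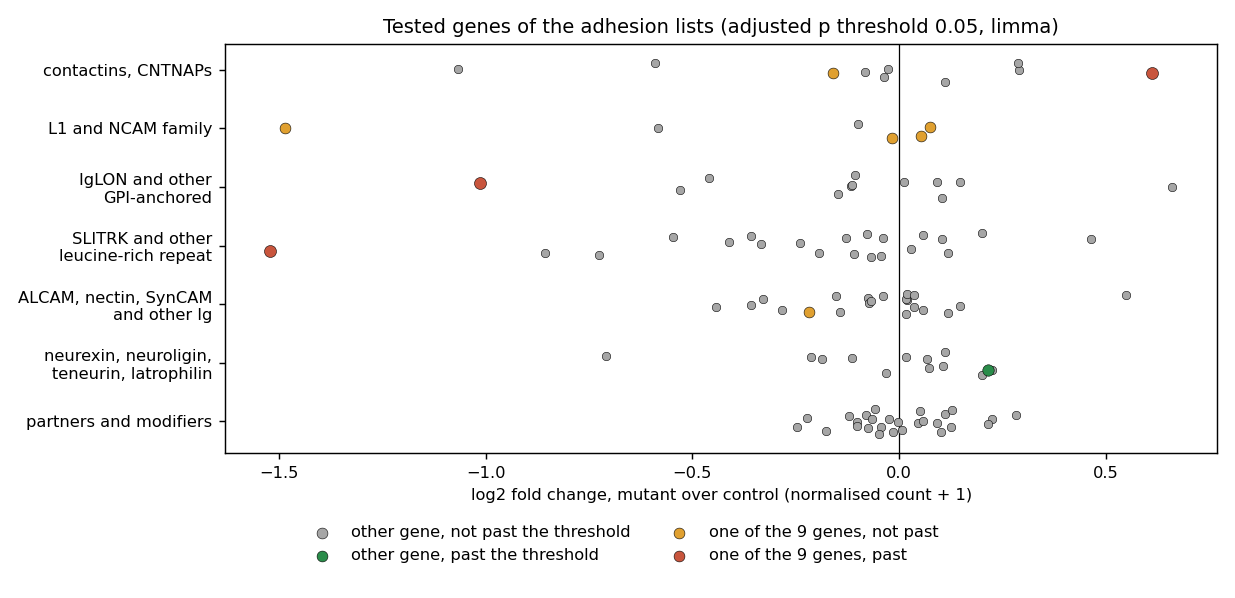
Log2 fold changes of mutant over control (horizontal axis, normalised count + 1) of the tested genes in 7 lists of adhesion genes and partners (rows), with colours for the 9 genes followed here and for the adjusted p threshold of 0.05. Slitrk6, Chl1 and Thy1 lie at -1.52, -1.48 and -1.01, and apart from the 9 genes only Odz3 is past the threshold.

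The 3 called genes were compared with all tested genes of mean at least 50 by the shape of their values over the 8 libraries. Likeness was the root mean square difference between log2 profiles, each centred on its own mean, in which a smaller value is a closer shape. Nearest to Thy1 were Fam84a (0.165), the hedgehog target Gli1 (0.219) and the bone morphogenetic protein gene Bmp3 (0.239). Gli1 stood at 374, 391, 451 and 434 in controls and at 251.1, 220.4, 286 and 277 in mutants, with mutant 2 lowest, as for Thy1. Nearest to Slitrk6 were the tight junction gene Cldn1 (0.330), Ccdc3 (0.378) and Igfbp6 (0.380), whose protein binds insulin-like growth factors. In each of these 3 genes, control 4 was the lowest control, as for Slitrk6. Nearest to Cntn4 were the noncoding gene Snhg6 (0.145), the transcription factor gene Etv1 (0.151) and Met (0.163), a receptor tyrosine kinase gene. The measure includes the difference between genotypes.

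In the authors' deposited table, the adjusted p was 8.03e-07 for Thy1, 7.10e-05 for Slitrk6 and 0.0338 for Cntn4, and the other 6 genes were at 0.356 or above. The share of genes under 0.05 in the authors' deposited table was 0.614% of those with a p-value.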

How the data were processed

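Per the submitters' processing notes, the authors used TopHat2 2.0.12, HTSeq and DESeq2 1.4.5 with build mm10 (GRCm38); the annotation and the strand setting are not given in the sources used here. Libraries were made from poly(A)-selected RNA, per the labels' protocols. The deposited signal values are reads per gene scaled by each library's size factor, and the deposited table also holds the authors' fold change (ratio of group means), its log2 and p-values, per the file headers. Low values stepped in units of 1 read, from which whole reads were recovered for 100% of values within 0.01 read.

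Values were tested as log2(value + 1) by limma 3.58.1 in R 4.3.3, two-sided, with an intensity trend and Benjamini-Hochberg adjustment over 13692 genes of mean at least 10. Since the values are normalised, count tests served only as alternatives. Recovered reads were tested with edgeR 4.0.16 and DESeq2 1.42.0 for that purpose. The test was checked on simulated data, where it recovered 46% of genes changed 1.25-fold and 90% of those changed 2-fold. Of 166 calls there, 11 were false. Changes of the smaller size were therefore often missed.

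The 9 genes, the lists and the alternatives that leave out both libraries numbered 2 or controls 1 and 2, or add Ddx3y as a covariate, were chosen with earlier results of these data known. Beyond the 9, the text names the genes of each list past the threshold, or otherwise the 2 with the smallest p, and the 3 nearest profiles of each called gene. Gene levels per kb used exon lengths of GENCODE vM21. Markers were listed for 11 cell types or tissues. The marker sums of endothelium were 4499 to 5303 in controls and 3946 to 5045 in mutants. Those of macrophages and leukocytes were 353 to 588 and 233 to 422, of liver 10.3 to 699 and 10.7 to 136, and of adrenal cortex 69.6 to 76.5 and 76.3 to 86.3. None of these 4 lists had a called gene. No library was a duplicate of another of its group (chi-square over degrees of freedom from 2.89 to 10.98).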

Additional observations from a re-analysis of the deposited data

Results flagged for a closer look

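Of 62 groups of 4 values examined, 3 had a library far from the other 3, where chance gives about 3.1. Ncam1 was at 2411 in mutant 4 against 2300.2 to 2316 in the other mutants. Igfbp6, a near profile of Slitrk6, was at 37.6 in control 4 against 101 to 108 in the other controls. Snhg6, a near profile of Cntn4, was at 230.02 in mutant 2 against 277 to 285 in the other mutants.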

How the results depend on the processing

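The 3 called genes kept their direction under all 21 alternatives, with log2 fold changes from -1.09 to -0.87 for Thy1, -1.69 to -1.27 for Slitrk6 and 0.56 to 0.69 for Cntn4. Of all genes, 78 were past the threshold, 214 by DESeq2, 4 by limma without a trend, 2 without both libraries numbered 2, 29 without controls 1 and 2, and 18 to 183 with 1 library left out. Of the 9 genes, 0 passed by limma without a trend, without both libraries numbered 2 or without controls 1 and 2 (5 had an unadjusted p under 0.05 in each), against 3 by edgeR and 4 by DESeq2, and 0 to 4 passed with 1 library left out. Of the 101 relatives, 5 passed by DESeq2, 0 without a trend, 0 without both libraries numbered 2 and 0 without controls 1 and 2 (18, 15 and 24 at an unadjusted p under 0.05), and 0 to 5 with 1 library left out. The cause was not tested. With 1 library left out, the log2 fold change of L1cam ranged from -0.019 (without mutant 3) to 0.12 and that of Nrcam from -0.063 (without mutant 2) to 0.23, with -0.03 without control 4 and -0.04 without mutant 1. Cntn4 also lost its call with no filter on low values (adjusted p = 0.0587) and with the Y-linked gene Ddx3y as a covariate (adjusted p = 0.0530). With the replicate block of sample numbers, 232 genes, 6 of the 101 relatives and 4 of the 9 genes passed, the fourth being Chl1 (adjusted p = 8.63e-04). Same-numbered libraries correlated in their deviations at 0.325, 0.287, 0.294 and 0.0635, and control 4 correlated best with mutant 3 (0.154), so the numbers were not taken as pairs. Low reads limit Slitrk6 most (17 to 108 per library).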

Other observations

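The profile of Chl1 was compared with all tested genes of mean at least 50 after its values had been seen. Nearest was Foxd1, the transcription factor of renal stromal progenitors, with a root mean square difference of 0.373 on the log2 scale. Kcnd2, a potassium channel gene (0.437), and Rxfp2, the receptor gene for insulin-like peptide 3 (0.467), followed. Foxd1 stood at 1038, 1138, 1693 and 2039 in controls and at 484, 469, 682 and 738 in mutants, and Chl1 at 101, 113, 197 and 253 and at 25.8, 47.9, 69.4 and 102. In both genes the libraries numbered 3 and 4 were the highest of each group. The commonly used Foxd1Cre allele disrupts Foxd1. Which allele was used is not given in the labels.

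For Nrcam, compared in the same way, the nearest profiles were Als2cl (0.0914), the integrin gene Itga6 (0.109) and Mapk11 (0.111). Itga6 stood at 1335, 1309.7, 1106 and 957 in controls and at 1383, 1379, 954 and 1026 in mutants, so the libraries numbered 1 and 2 were highest in each group, as for Nrcam.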
